A study of Mus musculus with 8 samples.

Results

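The genes described here are those of glucose breakdown: glucose uptake, glycolysis, lactate handling, the entry of pyruvate into mitochondria and the pentose phosphate pathway, with 2 of their regulators. A list of 40 genes was matched by symbol to the annotation of an Affymetrix mouse array, and each gene was represented by its brightest probe set, judged by the mean over the 8 arrays. This gave 38 measured genes of 18193 genes in all; G6pdx and Pfkfb1 were not analysed here. The study profiled mouse DN3 cells, thymocytes at the stage when the T cell receptor beta chain is rearranged. Lineage-negative thymocytes were grown on OP9 DL1 stroma, which presents a Notch ligand, and DN3 cells (Lin-CD44-CD25+) were then sorted from the cultures. The groups, 2 arrays each, were IkL/L cells with the gamma-secretase inhibitor MRK-003 (IkL/L GSI), IkL/L cells with the vehicle DMSO (IkL/L DMSO), WT cells with MRK-003 (WT GSI) and WT cells with DMSO (WT DMSO). IkL/L is the Ikaros-deficient genotype of the series title. Treatment lasted 16 h in every group, at a dose labelled as 5 mM of the inhibitor, a unit that could not be checked here. Strain, age and the number of animals are not given in the sources used here, and nothing in the labels says that the arrays of a group came from separate animals or cultures, so that p-values measure the spread between these arrays only.

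Glycolysis turns glucose into pyruvate in the cytosol, and 3 of its steps, catalysed by hexokinase, phosphofructokinase and pyruvate kinase, are the main points of control. Pyruvate is either reduced to lactate, which leaves through monocarboxylate transporters, or enters mitochondria through the pyruvate dehydrogenase complex, while the pentose phosphate pathway branches off after hexokinase and supplies NADPH and ribose for nucleotides. Gamma-secretase releases the active part of Notch receptors, and Notch signalling is known to sustain glucose metabolism and growth of pre-T cells.

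With GSI, 14 of the 38 genes fell and 3 rose when the responses of both genotypes were averaged. The genes that fell were Hk2, Pgam1, Tpi1, Pfkp, Ldha, Pkm, Slc16a1, Tigar, Slc2a3, Rpia, Pfkl, Pgk1, Pdk3 and Tkt, and those that rose were Aldoc, Pfkfb4 and Pdk1. These calls were made with limma at a Benjamini-Hochberg adjusted p below 0.05 over all 18193 genes, of which 12.5% fell and 10.8% rose, 23.3% in all. The median log2 difference (GSI minus DMSO) was -0.22 for the 38 genes and -0.002 for all genes tested. In both genotypes alike, the GSI arrays lay below the DMSO arrays without overlap for 17 of the 38 genes and above them for 2, against 15.6% and 13.7% of all genes. Hk2 had the sixth lowest difference of all genes, and ranks 131 to 320 from the lowest were held by Pgam1, Tpi1, Pfkp, Ldha and Pkm.

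**Figure D1:**
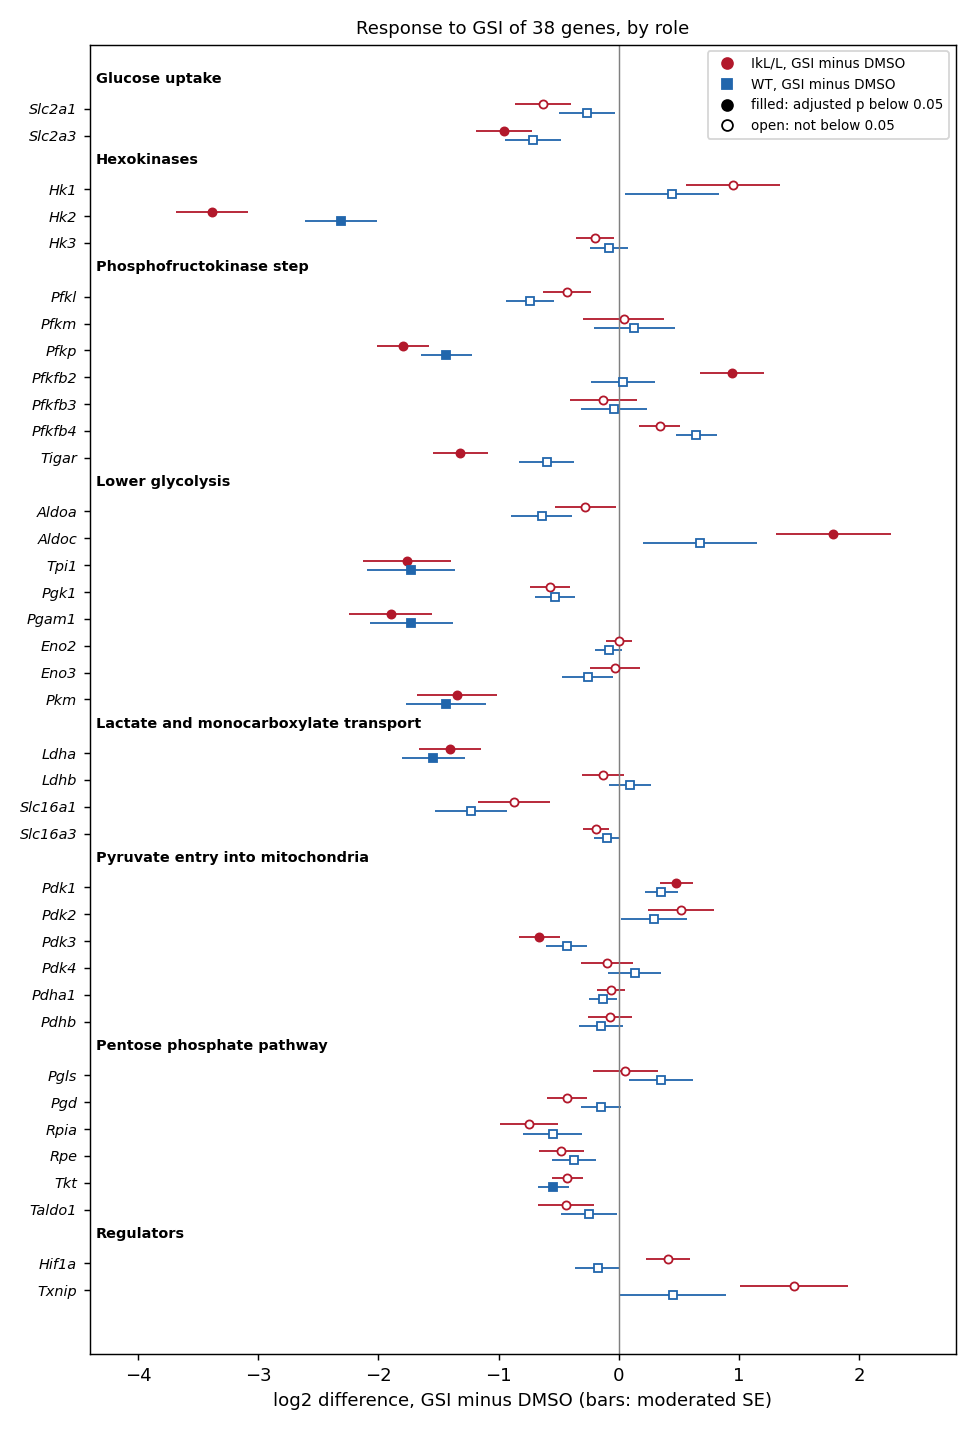
Log2 difference, GSI minus DMSO, of the 38 genes by role, for IkL/L cells (red circles) and WT cells (blue squares), with bars of 1 moderated SE; filled symbols have an adjusted p below 0.05. Hk2 lies farthest to the left in both genotypes, Pfkp, Tpi1, Pgam1, Pkm and Ldha lie between -1.90 and -1.35, the WT values of these 5 between -1.73 and -1.43, and Hk1, Pfkm and Ldhb lie near or to the right of zero.

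The arrays differed in further respects that bear on the values below. The difference between the 3′ and 5′ control probe sets for GAPDH mRNA, a measure of how far labelled RNA extends from the 3′ end, was 3.09 and 3.03 log2 units on the IkL/L GSI arrays, against 1.87 and 2.47 on the IkL/L DMSO arrays. For WT cells it was 2.20 and 3.08 on the WT GSI arrays, against 1.71 and 2.12 on the WT DMSO arrays. It was higher with GSI in both genotypes without overlap, and GAPDH is itself a glycolytic enzyme. With this difference as a covariate, 10 of the 38 genes were called, and 7 of the 17 calls remained: Hk2, Pfkp, Tigar, Tpi1, Pgam1, Ldha and Aldoc. The share of all genes called in that fit is not given here. This covariate goes with treatment, so a fit with it can also take away a response to GSI. RNA quality and treatment cannot be told apart here, and a call lost with this covariate is given below as a limit only. Markers of stroma had mean levels of 7.52 and 6.96 on IkL/L GSI arrays and 7.56 and 6.60 on IkL/L DMSO arrays, and 7.96 and 6.20 on WT GSI arrays against 7.27 and 6.41 on WT DMSO arrays; 0 of 19 were called with limma in the average response, 0 had an unadjusted p below 0.05, and 2 lay below every array's median throughout. With the stromal level as a covariate all 17 calls remained. Of 15 myeloid and dendritic markers, 8 rose and 0 fell in the average response, against 10.8% and 12.5% of all genes. They were led by Lyz1 (2.23), H2-Aa (2.15), Lyz2 (1.68) and S100a8 (1.59). Taken by genotype, 8 of the 15 markers rose in IkL/L cells and 2 of the 15 markers in WT cells. Their mean level was 6.64 and 6.61 on IkL/L GSI arrays, 5.45 and 5.47 on IkL/L DMSO arrays, 5.65 and 5.41 on WT GSI arrays and 5.25 and 4.96 on WT DMSO arrays, and 5 of the 15 (Itgam, Cd14, Mpo, Elane and Siglech) lay below every array's median. Of 7 B cell markers, Vpreb1 (1.80) and Cd79b (1.28) rose, against 10.8% of all genes. The list's mean was 6.01 and 6.13 on IkL/L GSI arrays and 5.47 and 5.36 on IkL/L DMSO arrays. It was 6.05 and 5.82 on WT GSI arrays and 5.51 and 5.43 on WT DMSO arrays. Cd79a, Ms4a1 and Ebf1 were below every median. The 11 DN3 markers had levels of at least 8.37 on every array, although Il2ra, which encodes CD25 of the sort gate, fell by 2.28 and Ptcra fell by 1.99; none of 3 erythroid markers was called with limma, and 0 had an unadjusted p below 0.05. The part of these other cells and of RNA quality in the results was not tested beyond the covariate fits named. In bulk RNA, fewer cells of a type and less RNA per cell cannot be told apart.

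Promoter sequence was available from RefSeq (GRCm38.p6) for 37 of the 38 genes, as windows of 250 bases before to 50 bases after a start. Both strands were searched for CACGTG, the core of the E-box that MYC with MAX and MondoA with MLX are known to bind. They were also searched for ACGTG, a form of the core of the hypoxia response element, which reads CACGT on the other strand. Other forms of that core were not searched for. Every CACGTG also holds both of the shorter runs. CACGTG stood in 7.15% of all 32851 windows and in a window of 7 of the 37 genes, 2 of the 13 that fell and 5 of the other 24. ACGTG or CACGT stood in 19.62% of all windows and in 19 of the 37 genes, 7 of the 13 and 12 of the 24. A gene can have several windows, so that shares of genes and of windows are not on the same base. Of the 52 windows of the 37 genes, 7 held CACGTG and 23 held ACGTG or CACGT. The windows shown are those of 4 genes that fell and hold a run, each at a different step of the pathway. A window of Pfkm, which holds CACGTG and was not called, is shown too. Ldha has 2 windows and Pfkm has 4, and for these the window with the most matches is shown. Each window is written 5′ to 3′ on the gene's own strand, and capitals mark the runs searched for. The positions are chr6:82774405-82774704 on the minus strand for Hk2 and, on the plus strand, chr7:46845554-46845853 for Ldha, chr3:104638414-104638713 for Slc16a1, chrX:106186850-106187149 for Pgk1 and chr15:98092339-98092638 for Pfkm.
Hk2: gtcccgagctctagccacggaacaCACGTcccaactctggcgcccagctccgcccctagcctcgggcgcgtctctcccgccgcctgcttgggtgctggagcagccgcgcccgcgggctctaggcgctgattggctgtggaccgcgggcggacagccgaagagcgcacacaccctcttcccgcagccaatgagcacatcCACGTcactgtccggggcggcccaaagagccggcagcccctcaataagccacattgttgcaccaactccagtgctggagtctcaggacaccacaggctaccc
Ldha: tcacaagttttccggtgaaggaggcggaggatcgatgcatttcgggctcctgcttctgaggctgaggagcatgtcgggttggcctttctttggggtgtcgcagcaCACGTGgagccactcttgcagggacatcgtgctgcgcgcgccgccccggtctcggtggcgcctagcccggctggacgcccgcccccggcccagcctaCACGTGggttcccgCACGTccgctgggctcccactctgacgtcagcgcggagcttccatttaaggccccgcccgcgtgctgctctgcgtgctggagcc
Slc16a1: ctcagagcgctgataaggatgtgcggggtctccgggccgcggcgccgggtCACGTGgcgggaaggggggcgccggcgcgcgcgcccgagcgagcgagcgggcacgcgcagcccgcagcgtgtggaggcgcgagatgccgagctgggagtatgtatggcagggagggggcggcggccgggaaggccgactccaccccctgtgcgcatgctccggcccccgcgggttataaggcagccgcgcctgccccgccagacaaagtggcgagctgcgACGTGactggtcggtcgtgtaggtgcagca
Pgk1: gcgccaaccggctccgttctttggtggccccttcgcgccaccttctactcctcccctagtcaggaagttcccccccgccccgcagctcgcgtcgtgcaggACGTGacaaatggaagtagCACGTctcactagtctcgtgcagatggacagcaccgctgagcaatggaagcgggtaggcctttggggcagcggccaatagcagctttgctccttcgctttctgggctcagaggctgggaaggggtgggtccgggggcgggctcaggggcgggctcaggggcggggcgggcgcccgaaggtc
Pfkm: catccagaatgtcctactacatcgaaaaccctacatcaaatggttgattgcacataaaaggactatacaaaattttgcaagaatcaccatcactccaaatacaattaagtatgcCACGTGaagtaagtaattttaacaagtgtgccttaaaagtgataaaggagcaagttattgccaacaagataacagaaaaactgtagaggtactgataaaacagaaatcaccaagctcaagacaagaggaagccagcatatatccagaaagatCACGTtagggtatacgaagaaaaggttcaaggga
The Ldha window holds CACGTG 2 times and 1 further CACGT, and the Slc16a1 window holds 1 CACGTG and 1 ACGTG. The Hk2 and Pgk1 windows hold 2 shorter runs each and no CACGTG. A match of letters is a description and not a binding site.

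Glucose enters lymphocytes through transporters that include the products of Slc2a1 and Slc2a3. Of these 2 genes 1 fell, against 12.5% of all genes. The Slc2a3 level was 7.95 and 8.36 on the IkL/L GSI arrays, against 9.17 and 9.05 on the IkL/L DMSO arrays. In WT cells it was 8.76 and 8.46 on the WT GSI arrays, against 9.53 and 9.11 on the WT DMSO arrays. GSI arrays lay below DMSO arrays in both genotypes, and the average log2 difference was -0.83 ± 0.16 (limma, adjusted p = 0.00761). Slc2a1 differed by -0.45 ± 0.16 (adjusted p = 0.0909, 95% interval -0.83 to -0.07) and its WT arrays overlapped: 7.52 and 8.09 on the WT GSI arrays, against 8.21 and 7.93 on the WT DMSO arrays. In the fit with every probe set as a feature, 2 other Slc2a1 probe sets gave -0.71 (adjusted p = 0.0172) and -0.64 (adjusted p = 0.0384), and the one used gave -0.45 (adjusted p = 0.116). The Slc2a3 call was lost with the GAPDH covariate.

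Of the 3 hexokinase genes, whose enzymes trap glucose in the cell as its phosphate, Hk2 fell and Hk1 and Hk3 were not called. Hk2 stood at 5.84 and 5.69 on the IkL/L GSI arrays, against 9.28 and 9.01 on the IkL/L DMSO arrays. In WT cells it stood at 6.29 and 5.91 on the WT GSI arrays, against 8.86 and 7.96 on the WT DMSO arrays. Every GSI array lay below every DMSO array. On the IkL/L GSI arrays Hk2 lay not far above the array medians, 5.33 and 5.32, and Hk2 had no other probe set. This limits what the size of its difference, and a comparison of that size between genotypes, can show. The difference was -3.38 ± 0.30 in IkL/L cells, a 10.4-fold lower level (limma, adjusted p = 0.000798), and -2.31 ± 0.30 in WT cells, 4.96-fold lower (adjusted p = 0.00943). The average, -2.85 ± 0.21 (adjusted p = 0.000213), was called in all 19 alternative fits, with values between -3.07 and -2.32. Hk1, the form of most tissues, stood at 10.73 and 10.79 on the IkL/L GSI arrays, against 9.34 and 10.29 on the IkL/L DMSO arrays. WT cells had 10.32 and 10.58 on the WT GSI arrays, against 9.46 and 10.55 on the WT DMSO arrays. The Hk1 groups did not overlap in IkL/L cells but overlapped in WT cells, where the DMSO arrays were over 1 log2 unit apart, and the average of 0.70 ± 0.28 missed the threshold (adjusted p = 0.116, 95% interval 0.06 to 1.33). Alternatives changed this: with the stromal covariate Hk1 was called in the average (adjusted p = 0.01) and in IkL/L cells (adjusted p = 0.0179), and 3 of 19 alternatives called the average, with estimates between -0.07 and 0.97 over the 19. Without WT DMSO replicate 2 the average was 0.97 (adjusted p = 0.0282). A second, dimmer Hk1 probe set gave 0.04 ± 0.62. Set side by side, the changes of Hk2 and Hk1 differed by -3.54, and the within-array difference did not overlap between GSI and DMSO in either genotype, as was also so for the 4 other isozyme pairs named below (pairs chosen after the values were seen, with no test). Hk3 differed by -0.14 ± 0.11 (95% interval -0.40 to 0.11).

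**Figure D2:**
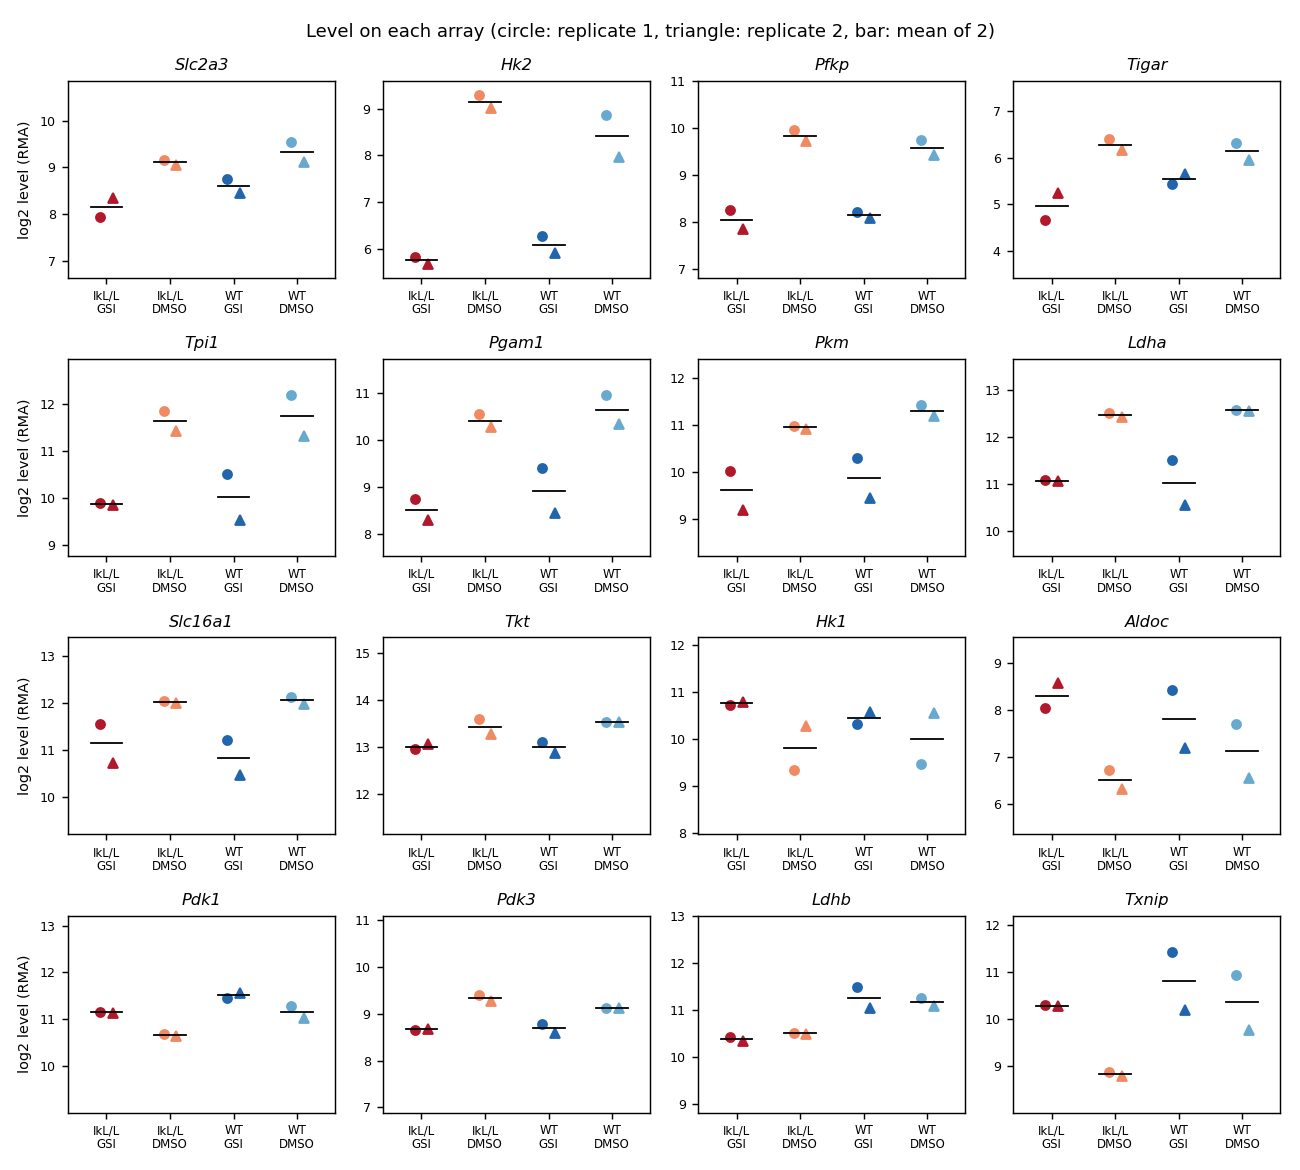
RMA log2 level on each array for 16 of the genes, in the order IkL/L GSI, IkL/L DMSO, WT GSI and WT DMSO; circles are replicate 1, triangles replicate 2 and bars the mean of 2 arrays, and each panel has its own axis range. For Hk2, Pfkp, Tpi1, Pgam1, Pkm and Ldha every GSI array lies below every DMSO array, while Ldhb separates by genotype instead, with IkL/L arrays from 10.33 to 10.51 and WT arrays from 11.03 to 11.49.

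At the phosphofructokinase step, the committed step of glycolysis, 3 of 7 genes fell and 1 rose, against 12.5% and 10.8% of all genes. Pfkp, the platelet-type isozyme, was at 8.25 and 7.85 on the IkL/L GSI arrays, against 9.96 and 9.73 on the IkL/L DMSO arrays. It was at 8.22 and 8.09 on the WT GSI arrays, against 9.75 and 9.43 on the WT DMSO arrays. All 4 GSI arrays lay below all 4 DMSO arrays, and the average difference was -1.61 ± 0.15 (limma, adjusted p = 0.000402), called in all 19 alternative fits with values between -1.71 and -1.03, the smallest with the mean over its probe sets. Pfkl, the liver-type isozyme, was at 9.30 and 9.57 on the IkL/L GSI arrays, against 9.72 and 10.01 on the IkL/L DMSO arrays, with 9.09 and 8.82 on the WT GSI arrays, against 9.78 and 9.60 on the WT DMSO arrays. Its groups did not overlap, and its difference was -0.58 ± 0.14 (adjusted p = 0.018), and the call was lost without WT DMSO replicate 1, IkL/L DMSO replicate 2 or IkL/L GSI replicate 1, and with the GAPDH covariate. For the muscle-type isozyme Pfkm the average difference was 0.08 ± 0.24 (adjusted p = 0.861, 95% interval -0.47 to 0.64), and the changes of Pfkp and Pfkm differed by -1.70. With the GAPDH covariate Pfkm was called higher in the average.

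The other genes of this step set the amount of the sugar bisphosphate that activates phosphofructokinase. Tigar, whose product breaks it down, was at 4.67 and 5.25 on the IkL/L GSI arrays, against 6.39 and 6.16 on the IkL/L DMSO arrays. WT cells had 5.43 and 5.64 on the WT GSI arrays, against 6.32 and 5.95 on the WT DMSO arrays. The average difference was -0.96 ± 0.16 (limma, adjusted p = 0.00388) without overlap in either genotype, and the estimate was -1.32 in IkL/L and -0.60 in WT cells, the second not called (adjusted p = 0.178). The IkL/L GSI levels of Tigar lay below the medians of those arrays, 5.33 and 5.32, which limits what the size of its difference can show. Pfkfb4, one of the bifunctional enzymes that make and break the activator, rose: 7.13 and 7.03 on the IkL/L GSI arrays, against 6.82 and 6.66 on the IkL/L DMSO arrays. In WT cells it was at 7.51 and 7.63 on the WT GSI arrays, against 6.84 and 7.01 on the WT DMSO arrays. The groups did not overlap, and the difference was 0.49 ± 0.12 (adjusted p = 0.0204), a call that 5 of the 8 fits without 1 array lost (without WT DMSO replicate 1 or any of the 4 IkL/L arrays) as did the GAPDH covariate. The Pfkfb4 difference itself lay between 0.44 and 0.53 over the 19 alternatives, and was 0.45 with that covariate. Pfkfb2 was called in IkL/L cells only, at 6.96 and 6.68 on the IkL/L GSI arrays, against 5.83 and 5.93 on the IkL/L DMSO arrays, a difference of 0.94 ± 0.27 (adjusted p = 0.0469). In WT cells the Pfkfb2 arrays overlapped at 6.003 and 6.49 on the WT GSI arrays, against 5.86 and 6.56 on the WT DMSO arrays, a difference of 0.03 ± 0.27 (adjusted p = 0.965). The difference between these responses was 0.91 ± 0.38 and missed the threshold (adjusted p = 0.821), and the IkL/L call was lost in 11 of 20 alternatives. These were the fits without any 1 of the 4 IkL/L arrays, both fits that changed the use of probe sets, both other scalings, eBayes without a trend, the 2-fold minimum and the GAPDH covariate. The estimate was 0.40 with that covariate and 0.20 with the mean over probe sets, and a second Pfkfb2 probe set above the array medians gave -0.14 ± 0.17. Pfkfb3 differed by -0.08 ± 0.20 (95% interval -0.54 to 0.37).

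Below phosphofructokinase, 4 of 8 genes fell and 1 rose, against 12.5% and 10.8% of all genes. Tpi1, which interconverts the triose phosphates, was at 9.89 and 9.85 on the IkL/L GSI arrays, against 11.85 and 11.42 on the IkL/L DMSO arrays. WT cells had 10.51 and 9.53 on the WT GSI arrays, against 12.19 and 11.31 on the WT DMSO arrays. Every GSI array was below every DMSO array, and the average difference was -1.75 ± 0.26 (limma, adjusted p = 0.00222). Pgam1, the phosphoglycerate mutase, was at 8.74 and 8.29 on the IkL/L GSI arrays, against 10.55 and 10.27 on the IkL/L DMSO arrays. WT cells had 9.40 and 8.44 on the WT GSI arrays, against 10.95 and 10.34 on the WT DMSO arrays. The groups did not overlap, the difference was -1.81 ± 0.24 (adjusted p = 0.00148), and both genes were called in all 19 alternative fits of the average. Over these the difference lay between -1.99 and -0.84 for Tpi1 and between -2.05 and -1.05 for Pgam1, in both cases smallest with the GAPDH covariate, under which Tpi1 was not called in IkL/L cells (adjusted p = 0.0564).

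Pkm encodes the pyruvate kinase that makes pyruvate and ATP in the last step. Its level was 10.02 and 9.18 on the IkL/L GSI arrays, against 10.98 and 10.91 on the IkL/L DMSO arrays. In WT cells it was 10.29 and 9.44 on the WT GSI arrays, against 11.41 and 11.19 on the WT DMSO arrays. GSI arrays lay below DMSO arrays, and the average difference was -1.39 ± 0.23 (limma, adjusted p = 0.00388); with the GAPDH covariate it was -0.88 (adjusted p = 0.081). Pgk1, the first ATP-making enzyme of the pathway, was at 11.93 and 12.15 on the IkL/L GSI arrays, against 12.74 and 12.48 on the IkL/L DMSO arrays. WT cells had 12.23 and 12.06 on the WT GSI arrays, against 12.89 and 12.47 on the WT DMSO arrays. The groups did not overlap and the difference was -0.55 ± 0.12 (adjusted p = 0.0111), a call lost without IkL/L DMSO replicate 1 and with the GAPDH covariate. The other Pgk1 probe sets gave -1.11 and -0.54 in the fit with every probe set as a feature (adjusted p = 0.00404 and 0.00647).

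Of the aldolase genes, Aldoc rose and Aldoa was not called. Aldoa, the form of most tissues, was at 10.45 and 10.73 on the IkL/L GSI arrays, against 10.96 and 10.77 on the IkL/L DMSO arrays. WT cells had 10.57 and 10.11 on the WT GSI arrays, against 11.32 and 10.65 on the WT DMSO arrays. The Aldoa groups did not overlap, but the difference of -0.46 ± 0.18 missed the threshold (adjusted p = 0.108). Aldoc, known mainly from brain, stood at 8.03 and 8.57 on the IkL/L GSI arrays, against 6.71 and 6.32 on the IkL/L DMSO arrays. WT cells had 8.41 and 7.19 on the WT GSI arrays, against 7.70 and 6.55 on the WT DMSO arrays. IkL/L arrays did not overlap and WT arrays did, and the average difference of 1.23 ± 0.34 passed the test (limma, adjusted p = 0.0312). This call was lost without any 1 of WT DMSO replicate 2, WT GSI replicate 1 and the 4 IkL/L arrays, and the changes of Aldoa and Aldoc differed by -1.69. The enolase genes Eno2 and Eno3 differed by -0.04 (95% interval -0.22 to 0.14) and -0.15 (95% interval -0.49 to 0.19), and Eno2 lay below every array's median on all arrays.

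Of the 4 genes of lactate and monocarboxylate transport, 2 fell and 0 rose, against 12.5% and 10.8% of all genes. Ldha, the lactate dehydrogenase subunit that favours lactate formation, was at 11.08 and 11.06 on the IkL/L GSI arrays, against 12.52 and 12.43 on the IkL/L DMSO arrays. WT cells had 11.51 and 10.55 on the WT GSI arrays, against 12.58 and 12.57 on the WT DMSO arrays. The 4 DMSO arrays lay close together and above every GSI array, and the average difference was -1.47 ± 0.18 (limma, adjusted p = 0.00106), called in all 19 alternative fits with values between -1.71 and -0.92, the smallest with the GAPDH covariate. Slc16a1, the transporter that carries lactate and pyruvate across the plasma membrane, was at 11.56 and 10.73 on the IkL/L GSI arrays, against 12.04 and 11.99 on the IkL/L DMSO arrays. WT cells had 11.21 and 10.46 on the WT GSI arrays, against 12.14 and 11.99 on the WT DMSO arrays. The groups did not overlap and the difference was -1.05 ± 0.21 (adjusted p = 0.00876), with adjusted p = 0.186 under the GAPDH covariate. Its relative Slc16a3 was below every array's median on all arrays and differed by -0.15 ± 0.08 (95% interval -0.32 to 0.03).

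Ldhb, the subunit typical of oxidative tissues, was not called. Its average difference with GSI was -0.02 ± 0.12 (limma, adjusted p = 0.943, 95% interval -0.31 to 0.27), and the changes of Ldha and Ldhb differed by -1.46. Ldhb separated by genotype: with GSI it was at 10.41 and 10.33 in IkL/L cells, against 11.49 and 11.03 in WT cells. With DMSO it was at 10.51 and 10.49 in IkL/L cells, against 11.26 and 11.08 in WT cells. IkL/L arrays were below WT arrays under both treatments, and the log2 difference was -0.89 ± 0.18 with GSI (adjusted p = 0.0578) and -0.67 ± 0.18 with DMSO (adjusted p = 0.148), both short of the threshold. The 3 other Ldhb probe sets gave -1.01, -0.98 and -0.98 with GSI in the fit with every probe set as a feature (adjusted p = 0.0155, 0.0255 and 0.0244; 0.0968 for the one used), and the mean over the 4 gave -0.97 (adjusted p = 0.0129). Of 20 alternatives for Ldhb with GSI, 7 called it and 13 did not, with differences between -1.12 and -0.66.

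Of the 6 genes at the entry of pyruvate into mitochondria, 1 rose and 1 fell, both kinases that inhibit pyruvate dehydrogenase. With so few genes, these counts are near the shares over all genes, 10.8% and 12.5%. Pdk1 was at 11.16 and 11.13 on the IkL/L GSI arrays, against 10.69 and 10.65 on the IkL/L DMSO arrays. WT cells had 11.46 and 11.57 on the WT GSI arrays, against 11.29 and 11.03 on the WT DMSO arrays. GSI arrays lay above DMSO arrays in both genotypes, by 0.41 ± 0.10 (limma, adjusted p = 0.0167), and the call was lost without WT DMSO replicate 2 or any of the 4 IkL/L arrays. Pdk3 was at 8.65 and 8.68 on the IkL/L GSI arrays, against 9.39 and 9.26 on the IkL/L DMSO arrays. WT cells had 8.79 and 8.59 on the WT GSI arrays, against 9.13 and 9.11 on the WT DMSO arrays. Here GSI arrays lay below DMSO arrays, with a difference of -0.55 ± 0.12 (adjusted p = 0.0126), a call lost without IkL/L DMSO replicate 1. The GAPDH covariate ended both calls at differences of 0.43 for Pdk1 and -0.39 for Pdk3; over the 19 alternatives they lay between 0.35 and 0.57 for Pdk1 and between -0.60 and -0.39 for Pdk3. The changes of Pdk3 and Pdk1 differed by -0.96. Pdk2 differed by 0.40 ± 0.19 (95% interval -0.04 to 0.85) and Pdk4, below every array's median, by 0.02 ± 0.15. The genes of the first enzyme of the complex, Pdha1 and Pdhb, differed by -0.10 (95% interval -0.29 to 0.09) and -0.11 (95% interval -0.41 to 0.19).

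In the pentose phosphate pathway, 2 of 6 genes fell and 0 rose, against 12.5% and 10.8% of all genes. Both that fell belong to the branch that rearranges sugar phosphates. Tkt, the transketolase, was at 12.95 and 13.06 on the IkL/L GSI arrays, against 13.60 and 13.26 on the IkL/L DMSO arrays. WT cells had 13.11 and 12.86 on the WT GSI arrays, against 13.54 and 13.53 on the WT DMSO arrays. The groups did not overlap and the difference was -0.49 ± 0.09 (limma, adjusted p = 0.00645); a second probe set gave -1.07 (adjusted p = 0.00309 in the fit with every probe set). Rpia, the ribose phosphate isomerase, was at 9.34 and 9.60 on the IkL/L GSI arrays, against 10.29 and 10.14 on the IkL/L DMSO arrays. WT cells had 9.71 and 9.44 on the WT GSI arrays, against 10.46 and 9.79 on the WT DMSO arrays. Its difference was -0.65 ± 0.17 (adjusted p = 0.0278), and only 2 of the 8 fits without 1 array, which left out WT DMSO replicate 2 or WT GSI replicate 1, kept the call. The GAPDH covariate ended both calls. Rpe, the epimerase, missed the threshold at -0.43 ± 0.13 (adjusted p = 0.0505); of its other probe sets, 1 passed at -0.73 (adjusted p = 0.02) and a dim one at 0.36 (adjusted p = 0.0321). Taldo1, the transaldolase, differed by -0.34 ± 0.16 (95% interval -0.72 to 0.03). Of the oxidative branch, Pgd differed by -0.29 ± 0.12 (95% interval -0.56 to -0.02) and Pgls by 0.20 ± 0.19 (95% interval -0.24 to 0.64).

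**Figure D3:**
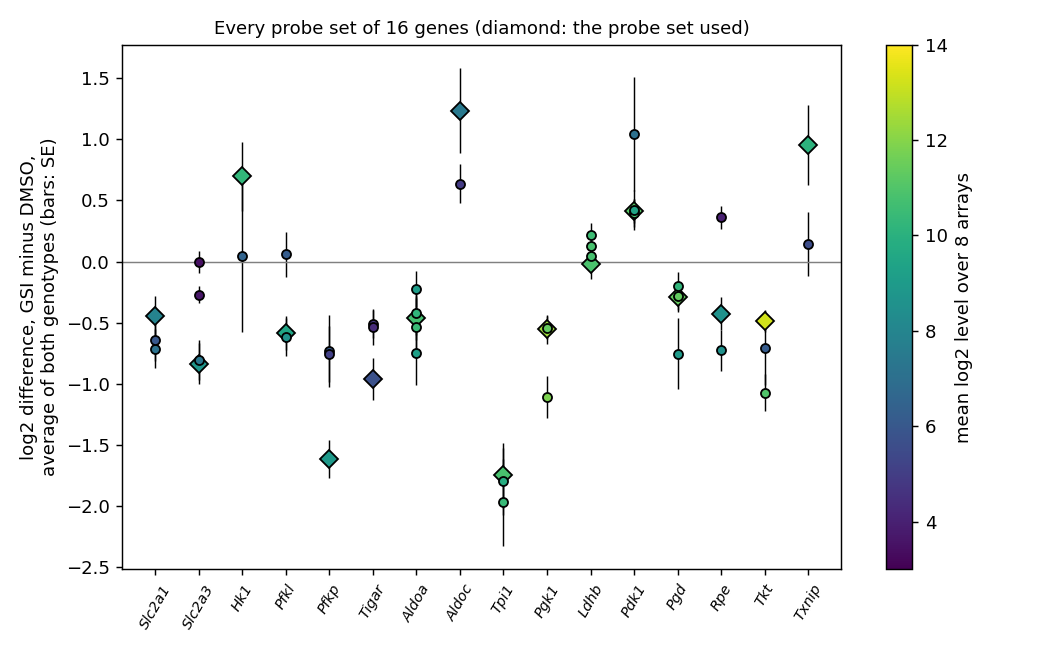
Average log2 difference, GSI minus DMSO, of every probe set of 16 genes that have more than 1, with bars of 1 SE; diamonds are the probe sets used and colour gives the mean log2 level over 8 arrays. The probe sets of Tpi1 lie between -1.97 and -1.75, those of Pgk1 and Tkt reach -1.11 and -1.07, and those of Ldhb lie around zero.

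The 38 genes had 84 probe sets, 46 of them beside those used. Of the 33 with a mean above the highest array median, 28 changed in the direction of the one used and 18 of these by more; the 5 of opposite direction belonged to Ldhb (3), Pfkfb2 and Pfkl. The probe sets used for Aldoa, Tpi1, Pgk1, Pgd and Tkt carry the platform's mark for sequence shared with other transcripts, and that for Slc2a3 the mark for probes common to several transcripts, so that near-identical copies may add to their signal.

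Neither regulator was called in the main fit, that of group means to the values as deposited. Several alternatives, some of them also fits to all 8 arrays, called Txnip. Hif1a, the hypoxia-inducible subunit that drives many glycolytic genes, differed by 0.12 ± 0.13 (limma, adjusted p = 0.61, 95% interval -0.18 to 0.42). With GSI it was at 11.78 and 12.19 in IkL/L cells, against 11.43 and 11.23 in WT cells, a difference of 0.66 ± 0.18 (adjusted p = 0.192). Txnip, which restrains glucose uptake, was at 10.30 and 10.28 on the IkL/L GSI arrays, against 8.88 and 8.78 on the IkL/L DMSO arrays. WT cells had 11.43 and 10.19 on the WT GSI arrays, against 10.95 and 9.78 on the WT DMSO arrays. IkL/L arrays did not overlap and WT arrays did, where arrays of 1 group were over 1 log2 unit apart. The Txnip difference was 1.46 ± 0.45 in IkL/L cells (adjusted p = 0.0605) and 0.45 ± 0.45 in WT cells (adjusted p = 0.662), and the average was 0.95 ± 0.32 (adjusted p = 0.0642). IkL/L DMSO arrays were also below WT DMSO arrays for Txnip, with a difference of -1.53 ± 0.45 (adjusted p = 0.2). In IkL/L cells 12 of 20 alternatives called Txnip higher with GSI, among them the fit to only the arrays compared (adjusted p = 0.000858), the stromal covariate (adjusted p = 0.00212), the GAPDH covariate (adjusted p = 0.00237) and centring (adjusted p = 0.0458). The average was called in 8 of 19 alternatives (adjusted p = 0.00407 with the stromal covariate), with estimates between 0.55 and 1.95. The difference of the genotypes under DMSO was called in 4 of 20 (adjusted p = 0.00325 with the stromal covariate). A second, dimmer Txnip probe set gave 0.14 ± 0.26 for the average.

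Taken by genotype, 12 of the 38 genes were called in IkL/L cells and 7 in WT cells. In IkL/L cells 3 rose and 9 fell, against 7.7% and 9.09% of all genes and 16.8% called either way, with a median of -0.24 for the 38 and -0.05 for all genes. Those that fell were Hk2 (-3.38), Pgam1 (-1.90), Pfkp (-1.79), Tpi1 (-1.76), Ldha (-1.40), Pkm (-1.35), Tigar (-1.32), Slc2a3 (-0.95) and Pdk3 (-0.66), and those that rose were Aldoc (1.78), Pfkfb2 (0.94) and Pdk1 (0.48). The IkL/L GSI arrays did not overlap the IkL/L DMSO arrays and lay above them for 8 of the 38 genes and below them for 23, against 26.5% and 35.9% of all genes. Hk2 and Pfkp kept their IkL/L calls without each array in turn. The count was 2 without IkL/L DMSO replicate 1, 7 without IkL/L DMSO replicate 2, 6 without IkL/L GSI replicate 1 and 3 without IkL/L GSI replicate 2.

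In WT cells 7 genes fell and 0 rose with limma, against 4.16% and 2.31% of all genes and 6.47% called either way. An unadjusted p below 0.05 was found for 16 of the 38, against 3839 of all 18193 genes. The median was -0.21 for the 38 and 0.04 for all genes. The 7 that fell were Hk2 (-2.31), Tpi1 (-1.73), Pgam1 (-1.73), Ldha (-1.54), Pkm (-1.44), Pfkp (-1.43) and Tkt (-0.55). The WT GSI arrays did not overlap the WT DMSO arrays and lay above them for 2 genes and below them for 18, against 24.2% and 19.8% of all genes. None of the 7 was called without WT DMSO replicate 1, where Hk2 had an adjusted p of 0.0809. The WT count was 2 without WT DMSO replicate 2, 3 without WT GSI replicate 2 and 3 without either IkL/L DMSO array, which enter through the shared estimate of the spread.

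The responses of the genotypes were not shown to differ for any of the 38 genes. In the test of the difference (response in IkL/L minus response in WT) 0 of 38 were called with limma, against 0.044% of all genes; 2 had an unadjusted p below 0.05, and every alternative fit also gave 0. These 2 were Hk2, at -1.07 ± 0.42 (adjusted p = 0.812, 95% interval -2.05 to -0.09), and Pfkfb2. An unadjusted p below 0.05 was found for 1089 of all 18193 genes, a similar share. On simulated data this test recovered 23 of 100 genes changed by 1 log2 unit and 91 of 100 changed by 2. The adjusted threshold is stricter when fewer genes are called, and here only 8 of all 18193 were. These rates may therefore not hold for the 38 genes. For Tpi1 the interval of the difference was -1.23 to 1.16, for Pgam1 -1.30 to 0.96 and for Ldha -0.71 to 0.99, so that differences of about 1 log2 unit in these responses lie within the intervals.

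Between genotypes under 1 treatment, no gene of the list was called with limma. With GSI, IkL/L minus WT, 0 of 38 were called, against 1.46% of all genes. An unadjusted p below 0.05 was found for 6 of the 38, against 1946 of all 18193 genes. The 6 were Ldhb, Hif1a, Pfkfb4 (-0.49), Pdk1 (-0.37), Tigar (-0.58) and Pfkl (0.48). With DMSO 0 of 38 were called, against 1.74% of all genes. An unadjusted p below 0.05 was found for 4 of the 38, against 1854 of all 18193 genes, a similar share. The 4 were Ldhb, Pdk1 (-0.49), Txnip and Hk2 (0.74). Alternative fits called at most 1 gene with GSI and at most 2 with DMSO. Arrays of the genotypes did not overlap with GSI for some genes, IkL/L being above WT for 5 and below for 11, against 14% and 23.1% of all genes. With DMSO IkL/L was above WT for 2 and below for 8, against 22.4% and 17.4% of all genes. These comparisons share arrays with the responses to GSI.

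Of the other genes of the same pathways, 36 measured of 42 listed, 13 fell and 3 rose in the average response, with a median of -0.23. These are 36.1% and 8.33%, against 12.5% and 10.8% of all genes. The largest changes were those of Pgm3 (-1.49 ± 0.22, adjusted p = 0.00226), a phosphoglucomutase-family enzyme of amino sugar synthesis, and Pdp1 (-1.39 ± 0.18, adjusted p = 0.0012), a phosphatase that activates pyruvate dehydrogenase. Pgam2, the muscle mutase, fell (-1.14 ± 0.23, adjusted p = 0.00778), and Pck2, the mitochondrial enzyme that makes phosphoenolpyruvate, rose (1.24 ± 0.18, adjusted p = 0.00202).

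The list of the MYC network, 5 genes, held 2 that fell and 1 that rose, against 12.5% and 10.8% of all genes. Myc, the transcription factor known to activate many genes of glycolysis, was at 8.09 and 6.14 on the IkL/L GSI arrays, against 10.79 and 10.50 on the IkL/L DMSO arrays. WT cells had 9.49 and 8.57 on the WT GSI arrays, against 10.79 and 10.48 on the WT DMSO arrays. GSI arrays lay below DMSO arrays in both genotypes, with a difference of -2.57 ± 0.40 (limma, adjusted p = 0.00279). In WT cells alone Myc was not called (-1.61 ± 0.57, adjusted p = 0.149). Its partner Max fell in the average (-0.61), but its WT arrays overlapped. Max was at 7.93 and 7.99 on WT GSI arrays, against 8.27 and 7.93 on WT DMSO arrays. IkL/L cells had 7.26 and 7.07 on IkL/L GSI arrays, against 8.16 and 8.33 on IkL/L DMSO arrays. Of the 5 genes, 2 fell in IkL/L cells and 0 in WT cells. Mxd4, of the MXD family that opposes MYC, rose (1.89). Of 16 HIF1 targets outside glycolysis, 4 rose and 3 fell in the average response, against 10.8% and 12.5% of all genes. The median difference of the 16 was 0.17, with 10 positive and 6 negative. The 4 called genes with the largest changes were Ndrg1, which rose (1.22), and Egln3 (-1.10), Ankrd37 (-1.08) and Higd1a (-1.08), which fell. The other genes that rose changed by less. Of 5 genes related to MondoA and TXNIP, 1 rose, against 10.8% of all genes: Mlxip, which encodes MondoA (0.48). Arrdc4, a relative of Txnip, differed by 0.25 ± 0.22 (adjusted p = 0.508).

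**Figure D4:**
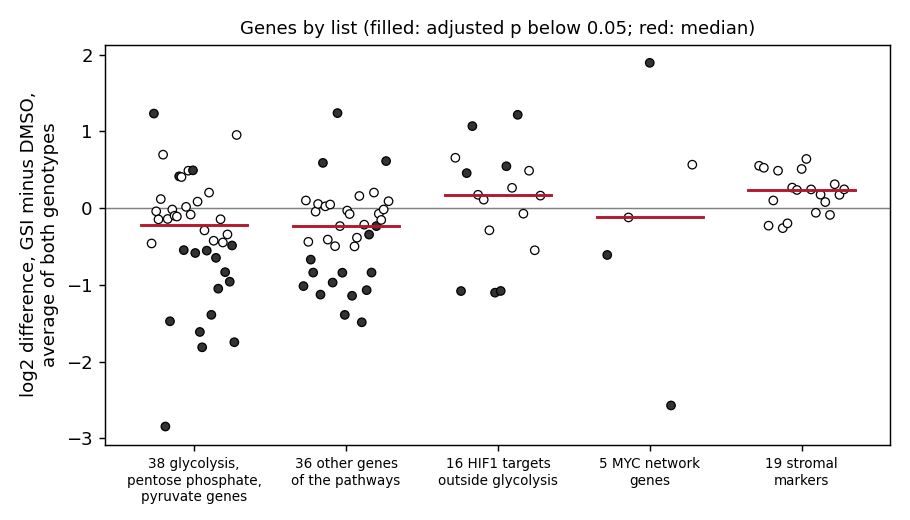
Average log2 difference, GSI minus DMSO, of each gene in 5 lists, with filled points at an adjusted p below 0.05 and a red bar at the median. The medians are -0.22 for the 38 genes, -0.23 for the 36 other genes of the pathways, 0.17 for HIF1 targets, -0.12 for the MYC network and 0.24 for stromal markers, none of which was called.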

How the data were processed

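Per the submitters' processing notes, the deposited values are log2 values that the authors made with RMA, which corrects background, normalises between arrays and summarises each probe set; its version is not given in the sources used here. Per the labels, total RNA of sorted cells was labelled in a two-cycle protocol that starts from between 15 and 100 ng, and amounts are not tied to single arrays.

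Values were used as deposited, without a filter. The table holds 45101 probe sets. Left out were 64 controls, 932 annotated to more than 1 gene and 9160 without an entry in the annotation, and the other 34945 gave 18193 genes by the highest mean over arrays. Medians of the 8 arrays lay between 5.25 and 5.33, and replicates of a group correlated between 0.975 and 0.993, both over all 45101 probe sets. Differences were fitted with limma 3.58.1 in R 4.3.3 (group means of all 8 arrays, 6 contrasts, eBayes with a trend, 4 residual and 4.11 prior degrees of freedom); tests were two-sided and p-values were Benjamini-Hochberg adjusted over all 18193 genes. Group values are per array; SE is the moderated standard error. On simulated data with 100 genes changed by 1 log2 unit and 100 by 2, the average contrast over 18193 genes recovered 93 and 99 of them with 12 false calls, the WT contrast 72 and 95 with 13, and the test of the difference of responses 23 and 91 with 5. Precision is limited by the number of arrays, and recovery also depends on how many genes change.

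The 40 genes, the other lists and the markers were chosen with earlier results of these data known. All 40 could be named, with array values for those called in at least 1 contrast; from each other list, up to 4 called in the average response by size, and Myc, Arrdc4 and Il2ra. Array values of Slc2a1, Hk1, Aldoa, Ldhb, Hif1a and Txnip, and the isozyme pairs, were added after their values were seen. Alternatives were the replicate number as a block, the mean over probe sets, every probe set as a feature, genes above the median level, further quantile normalization, centring, a fit to only the arrays compared, a 2-fold minimum, eBayes without a trend, each array left out, and covariates for GAPDH 3′ to 5′ difference and stromal level; a fit without both WT arrays numbered 1 was added after seeing the data. Figures were drawn in Python 3.11.15 with matplotlib 3.10.9.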

Additional observations from a re-analysis of the deposited data

How the results depend on the processing

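Of 118 counts of called genes under alternatives, 87 stayed within 1.5 times the reported count and 31 did not; the sign was kept in all 36 called results of single genes under each of the 2 other scalings. For the average response (17) the count was 10 with the GAPDH covariate and 8 with a 2-fold minimum. In WT cells (7) it was 4 with every probe set as a feature, 0 with only the arrays compared, 13 with the stromal covariate and 4 without both WT arrays numbered 1. In IkL/L cells (12) it was 20 with only the arrays compared, 21 with the stromal covariate and 20 without both WT arrays numbered 1. For IkL/L minus WT under DMSO (0) it was 1 with the replicate block and 2 with either covariate or without both WT arrays numbered 1. Under GSI (0) it was 1 with the replicate block, the mean over probe sets, further quantile normalization, centring or either covariate. Leaving out 1 array at a time gave 11 to 18 genes for the average, 0 to 8 in WT cells, 2 to 17 in IkL/L cells, 0 to 1 in each comparison of genotypes and 0 to 0 for the difference of responses. Fewer arrays lower the power by construction; otherwise the cause was not tested. Of 701 results of single genes under alternatives, 549 were called again and 152 were not. With the replicate block, 20 genes were called in the average, 9 in WT and 18 in IkL/L cells. It also called Hk1 in the average (adjusted p = 0.0183) and in IkL/L cells (adjusted p = 0.0272), and Txnip in the average (adjusted p = 0.0107), in IkL/L cells (adjusted p = 0.00958) and between genotypes under DMSO (adjusted p = 0.0359). Deviations of same-numbered arrays correlated over genes at 0.71 between the WT groups, and IkL/L DMSO with these at 0.579 (WT DMSO) and 0.562 (WT GSI). IkL/L GSI correlated at -0.113 with WT DMSO, 0.025 with WT GSI and -0.01 with IkL/L DMSO. Stromal level was higher on replicate 1 in all 4 groups. The labels do not say that the numbers pair samples. Levels near or below the array medians, as for Tigar, Eno2, Slc16a3, Pdk4 and, with GSI, Hk2, limit what a change there can show.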

Other observations

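The GAPDH control probe sets of the array, which name a glycolytic enzyme outside the list of 40 genes, were lower with GSI at each of their 3 positions. At the 3′ end they read 13.28 and 13.06 on the IkL/L GSI arrays, against 13.67 and 13.56 on the IkL/L DMSO arrays. WT cells had 13.29 and 13.14 on the WT GSI arrays, against 13.65 and 13.52 on the WT DMSO arrays. At the 5′ end they read 10.19 and 10.03 on the IkL/L GSI arrays, against 11.80 and 11.09 on the IkL/L DMSO arrays. WT cells had 11.09 and 10.07 on the WT GSI arrays, against 11.94 and 11.40 on the WT DMSO arrays. These values are given with no test.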
